A study of Mus musculus with 8 samples.

Results

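The 9 genes described here encode proteins that turn actin filaments over or tie them to adhesions. Dstn, Cfl1, Cfl2 and Pfn1 belong to actin turnover, and Flna, Vcl, Tln1, Actn1 and Zyx to the linkage of actin to adhesions. They were chosen by name with earlier results of these data known, so that counts of calls among them are descriptions. All of them, 9 of 9, were found among the 35896 genes of the count table. None was lost to the filter on low counts, which kept 17182 genes for testing.

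RNA-sequencing was performed on whole aortic tissue of wild-type male C57BL6 mice, 11 weeks old when treatment began. There were 8 libraries, each pooling tissue of 2 mice. The study's methods took only a piece of each aorta for RNA and do not state which segment it was. The AngII group received angiotensin II (AngII), the vasoconstrictor peptide of the renin-angiotensin system, at 2.8 mg/kg/day from an osmotic minipump for 2 weeks and was taken at the end of the infusion. The AngII+2W and AngII+3W groups received the same infusion and were taken 2 and 3 weeks after it had ended. The CTRL group was untreated. Per the methods of the study, controls were littermates matched in age and were taken at every one of these times, but which of the times the 2 CTRL libraries stand for is not given in the sources used here. Each group had 2 libraries.

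Actin filaments grow at one end and are taken apart at the other. Destrin and the cofilins bind ageing filaments, sever them and return actin monomers, while profilin loads monomers with ATP and hands them to growing ends. In the smooth muscle cells of the aortic wall the filaments pull on dense bodies and on integrin adhesions at the membrane: talin binds the integrin tail, vinculin strengthens that bond, alpha-actinin and filamin cross-link the filaments, and zyxin gathers where filaments are under strain.

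Total counts ran from 18130441 to 21498200 per library, so that the floor of 3 counts lay at 0.140 to 0.165 counts per 1000000 counts (CPM), far below the levels of the 9 genes. CPM values are given after TMM scaling of the library sizes. The aorta was checked against 12 smooth muscle contractile markers, all of which had counts in all 8 libraries. Their summed level was 9942 to 12910 CPM in CTRL, 2701 to 3230 CPM in AngII, 4920 to 5416 CPM in AngII+2W and 3383 to 4725 CPM in AngII+3W. AngII+3W replicate 1 stood apart, with 2257 CPM on 7 skeletal muscle markers against at most 74.1 CPM in the other libraries, and 5437 CPM on 7 cardiac muscle markers against 432 CPM in AngII+3W replicate 2. On the cardiac markers it was not alone, since they also reached 4658 and 2088 CPM in CTRL, against 1234 and 813 CPM in AngII and 82.0 to 231 CPM in AngII+2W. The 5 adipocyte markers summed to 4667 to 8389 CPM and the 4 Schwann cell markers to 37.7 to 113 CPM over all libraries. In whole tissue, fewer cells of a type and less RNA per cell cannot be told apart.

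The promoters of Vcl, Flna and Dstn, which varied together over the 8 libraries, and of Cfl1, which varied far less with them, are shown. Those of Zyx and Actn1 are not shown, although both varied with Flna more closely (Pearson's r = 0.982 and 0.973) than Vcl (0.910) and Dstn (0.912) did. Each window holds the 250 bases before and the 50 bases from the transcription start that RefSeq gives (build GRCm38.p6), 5′ to 3′ on the strand of the gene, and for Flna this start lies inside the gene's outermost annotated bounds. Capitals mark a CArG box, the motif of serum response factor (SRF), and CATTCC on either strand, the core motif of TEAD factors.

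Vcl, chr14:20929148-20929447, forward strand: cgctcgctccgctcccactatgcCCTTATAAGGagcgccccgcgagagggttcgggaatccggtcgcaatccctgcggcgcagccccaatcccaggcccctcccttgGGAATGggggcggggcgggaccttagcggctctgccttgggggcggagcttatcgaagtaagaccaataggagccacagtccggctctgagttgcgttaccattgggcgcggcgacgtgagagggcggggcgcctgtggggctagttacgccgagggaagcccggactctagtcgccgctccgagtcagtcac

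Flna, chrX:74246485-74246784, reverse strand: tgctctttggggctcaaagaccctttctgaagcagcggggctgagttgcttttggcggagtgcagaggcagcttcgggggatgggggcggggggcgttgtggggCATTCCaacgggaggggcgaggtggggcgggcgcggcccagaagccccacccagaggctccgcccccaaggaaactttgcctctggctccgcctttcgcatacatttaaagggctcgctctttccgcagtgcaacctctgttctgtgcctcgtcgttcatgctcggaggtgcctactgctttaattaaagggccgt

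Dstn, chr2:143915081-143915380, forward strand: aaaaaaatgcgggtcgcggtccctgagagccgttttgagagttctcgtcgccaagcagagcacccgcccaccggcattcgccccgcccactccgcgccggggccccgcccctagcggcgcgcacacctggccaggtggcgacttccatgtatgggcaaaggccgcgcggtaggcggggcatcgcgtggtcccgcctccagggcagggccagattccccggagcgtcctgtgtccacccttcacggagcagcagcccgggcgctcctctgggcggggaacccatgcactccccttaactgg

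Cfl1, chr19:5490205-5490504, forward strand: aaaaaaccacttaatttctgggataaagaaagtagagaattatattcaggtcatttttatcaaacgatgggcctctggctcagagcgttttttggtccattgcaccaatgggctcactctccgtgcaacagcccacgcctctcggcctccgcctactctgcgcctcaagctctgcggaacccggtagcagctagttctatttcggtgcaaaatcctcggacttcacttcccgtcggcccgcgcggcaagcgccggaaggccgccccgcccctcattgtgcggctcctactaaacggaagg

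Promoter windows of 9 of the 9 genes were found in RefSeq. A CArG box lay in 1 of them, that of Vcl, where it reads CCTTATAAGG and begins 227 bases before the start, against 1.63% of 32851 mouse promoter windows of the same length. CATTCC, searched on both strands, lay in 3 of 9 (Vcl, Flna and Pfn1) against 14.7% of all windows. GGGCGG, the GC box, searched on both strands and left in lower case above, lay in 8 of 9 against 35.7% of all windows. The window of Tln1 was without it, and some of the copies in Cfl1, Cfl2 and Vcl overlap each other. The CArG box and CATTCC overlapped no other motif searched. The GC content of the 4 windows shown was 66.7% (Vcl), 62.0% (Flna), 69.7% (Dstn) and 54.7% (Cfl1), against a median of 52.7% over all windows. A match is a description of the letters, and binding was not measured.

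At the end of the infusion, Dstn, Flna, Zyx and Vcl fell against CTRL, whereas Cfl1, Cfl2, Pfn1 and the linkers Actn1 and Tln1 did not pass the test. With edgeR's quasi-likelihood test and Benjamini-Hochberg adjustment over 17182 genes, 4 of the 9 genes passed an FDR of 0.05, all 4 lower. The share of all tested genes that passed was 5.10%, and 2.20% passed as lower. The median log2 fold change of the 9 genes was -0.91, with -0.0085 for all genes tested.

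**Figure D1:**
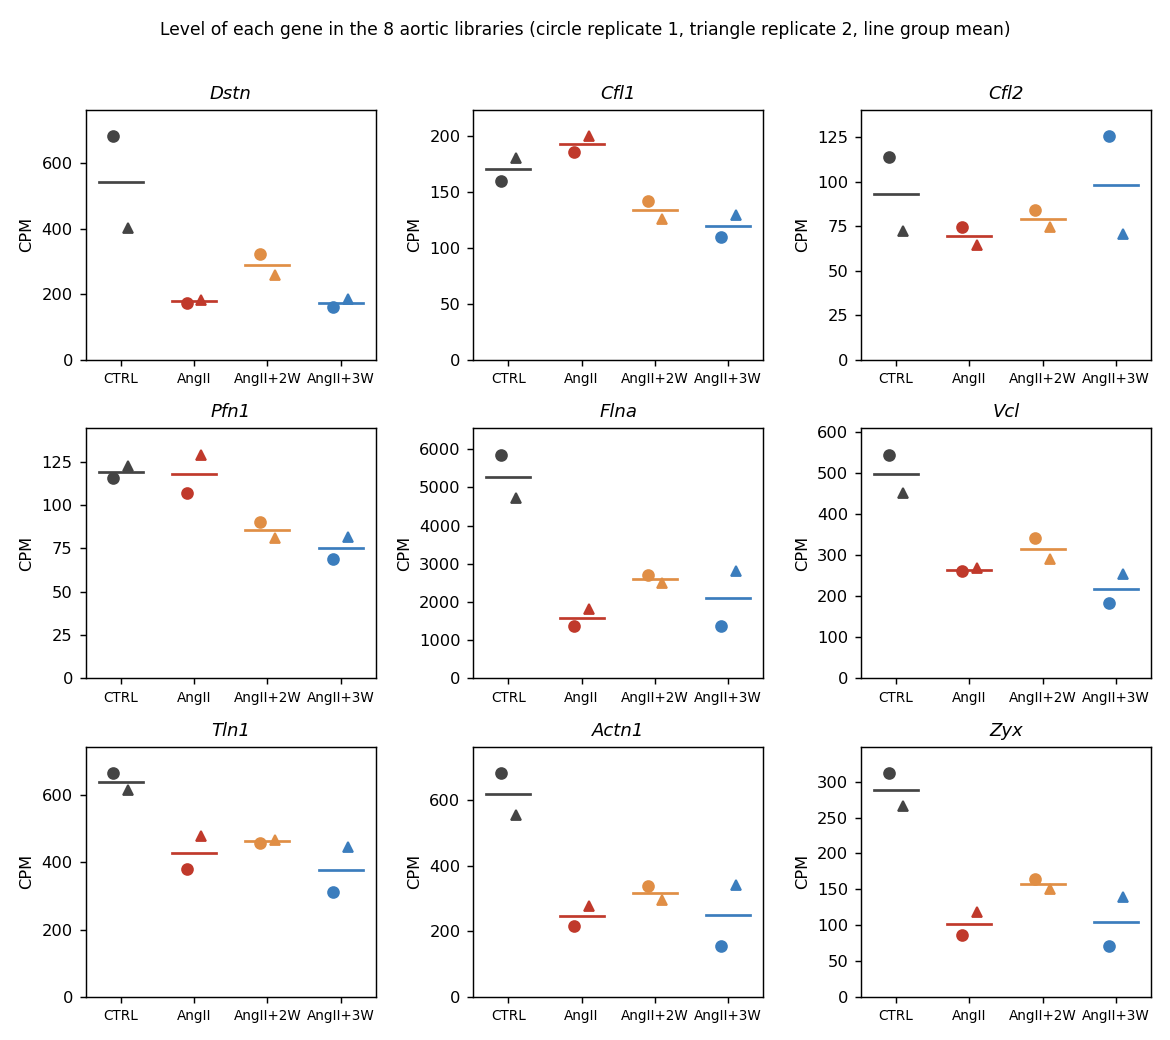
Level of each of the 9 genes in CPM (vertical axis, from 0) in CTRL, AngII, AngII+2W and AngII+3W, with a circle for replicate 1, a triangle for replicate 2 and a line for the mean of the 2 libraries. In Dstn, Flna, Vcl, Tln1, Actn1 and Zyx both CTRL libraries lie above all 6 libraries given AngII. The share of all tested genes with this pattern is not given here. Against 1 group at a time, both CTRL libraries lay above in 24.9% (AngII), 22.2% (AngII+2W) and 18.3% (AngII+3W) of all genes. These shares rest on the same 2 CTRL libraries.

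Dstn, which encodes destrin (actin depolymerizing factor), lies on chromosome 2 (GRCm38, 143915320 to 143943324, forward strand; ENSMUSG00000015932). Its level was 681 and 402 CPM in the 2 CTRL libraries, 174 and 183 CPM in AngII, then 322 and 258 CPM in AngII+2W and 161 and 185 CPM in AngII+3W. Both CTRL libraries were above every library given AngII, although CTRL itself was spread widely (541 ± 197 CPM, SD, n = 2), and the AngII libraries lay close together (179 ± 6.51 CPM, SD, n = 2). The log2 fold change of Dstn in AngII against CTRL was -1.60 (SE 0.252, FDR = 0.0179 in edgeR), which is 3.03-fold lower.

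Cfl1 encodes cofilin-1, the cofilin of non-muscle cells (chromosome 19, 5490455 to 5495201, forward strand; ENSMUSG00000056201). It had 160 and 180 CPM in CTRL, 185 and 199 CPM in AngII, then 142 and 125 CPM in AngII+2W and 110 and 130 CPM in AngII+3W. The AngII libraries were the highest of the 8 and the libraries of both later groups were the lowest. Against CTRL, the log2 fold change in AngII was 0.18, with a 95% interval from -0.16 to 0.51 (FDR = 0.564, edgeR). A fall of the size seen for Dstn lies outside this interval.

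Cfl2 encodes cofilin-2, the muscle cofilin (chromosome 12, 54858809 to 54862877, reverse strand; ENSMUSG00000062929). Its level was 114 and 72.5 CPM in CTRL, 74.7 and 64.3 CPM in AngII, then 84.0 and 74.4 CPM in AngII+2W and 126 and 70.9 CPM in AngII+3W. The groups overlapped, and the highest value belonged to AngII+3W replicate 1, the library with the skeletal muscle markers. The 2 libraries with the most Cfl2 were also those with the most cardiac muscle markers (4658 CPM in CTRL replicate 1 and 5437 CPM in AngII+3W replicate 1, against at most 2088 CPM elsewhere), and the part of these markers was not tested. Cfl2 differed between AngII and CTRL by a log2 fold change of -0.43 (95% interval -1.11 to 0.26, FDR = 0.486, edgeR).

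Pfn1 encodes profilin-1 (chromosome 11, 70651850 to 70654644, reverse strand; ENSMUSG00000018293). It was at 115 and 122 CPM in CTRL, 107 and 129 CPM in AngII, then 90.04 and 81.2 CPM in AngII+2W and 68.8 and 81.8 CPM in AngII+3W. AngII and CTRL overlapped, and the 4 later libraries were below both. The difference between AngII and CTRL was a log2 fold change of -0.01 (95% interval -0.36 to 0.33, FDR = 0.976, edgeR).

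Flna encodes filamin A, which cross-links actin filaments and binds integrin tails (chromosome X, 74223461 to 74249820, reverse strand; ENSMUSG00000031328). Of the 9 genes it had the most counts, with 5849 and 4711 CPM in CTRL, 1376 and 1802 CPM in AngII, then 2694 and 2488 CPM in AngII+2W and 1377 and 2807 CPM in AngII+3W. Every library given AngII was below both CTRL libraries, and the 2 AngII+3W libraries were further apart (2092 ± 1012 CPM, SD, n = 2) than those of AngII+2W (2591 ± 146 CPM, SD, n = 2). In AngII, Flna was 3.32-fold lower than in CTRL (log2 fold change -1.73, SE 0.348, FDR = 0.0357, edgeR).

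Vcl encodes vinculin (chromosome 14, 20929398 to 21033676, forward strand; ENSMUSG00000021823). Its level was 544 and 451 CPM in CTRL, 260 and 267 CPM in AngII, then 341 and 290 CPM in AngII+2W and 183 and 253 CPM in AngII+3W. It did not overlap between CTRL and any other group, and its lowest libraries were those of AngII+3W. Vcl fell 1.88-fold in AngII (log2 fold change -0.91, SE 0.194, FDR = 0.0408, edgeR).

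Zyx encodes zyxin (chromosome 6, 42349630 to 42360213, forward strand; ENSMUSG00000029860). It had 312 and 266 CPM in CTRL, 85.7 and 119 CPM in AngII, then 164 and 151 CPM in AngII+2W and 70.9 and 139 CPM in AngII+3W. Both AngII libraries were below both AngII+2W libraries, which in turn were below CTRL. Against CTRL, Zyx was 2.82-fold lower in AngII (log2 fold change -1.50, SE 0.307, FDR = 0.0375, edgeR).

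Actn1 encodes alpha-actinin-1 (chromosome 12, 80167547 to 80260371, reverse strand; ENSMUSG00000015143). Its level was 680 and 554 CPM in CTRL, 215 and 277 CPM in AngII, then 338 and 294 CPM in AngII+2W and 155 and 341 CPM in AngII+3W. The AngII+3W libraries held both the lowest value of the 8 and the highest of the 6 given AngII. The log2 fold change of Actn1 in AngII was -1.33 (SE 0.342, FDR = 0.0719, edgeR), which missed the threshold.

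Tln1 encodes talin-1 (chromosome 4, 43531519 to 43562691, reverse strand; ENSMUSG00000028465). It was at 664 and 614 CPM in CTRL, 380 and 477 CPM in AngII, then 457 and 468 CPM in AngII+2W and 311 and 445 CPM in AngII+3W. Both CTRL libraries were the highest, and AngII overlapped both later groups, while AngII+3W lay below AngII+2W. In AngII the log2 fold change was -0.58 (SE 0.204, FDR = 0.162, edgeR), the smallest difference from CTRL among the 5 linker genes.

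Both AngII libraries were below both CTRL libraries in 6 of the 9 genes (all 5 linkers and Dstn), as in 24.9% of all genes tested, and both were above in 1 (Cfl1), as in 24.4%. The same 6 genes had an unadjusted p below 0.05, against 9.29% of all genes with such a p in the lower direction. The markers of other cell types moved with these changes: 5 fibroblast markers summed to 464 to 781 CPM in CTRL and 1358 to 1764 CPM in AngII, and 7 leukocyte markers to 205 to 242 CPM in CTRL and 446 to 826 CPM in AngII. In the direction of the 6 genes, the 7 cardiac muscle markers were at 2088 to 4658 CPM in CTRL and 813 to 1234 CPM in AngII. The 7 skeletal muscle markers were at 41.3 to 74.1 and 19.1 to 26.2 CPM, and the 4 Schwann cell markers at 59.6 to 74.6 and 37.7 to 45.5 CPM. Of the skeletal sums, 71.1 and 33.1 CPM in CTRL and 23.6 and 16.3 CPM in AngII came from the highest gene alone. The 6 endothelial markers, in contrast, stayed between 926 and 1243 CPM in all 8 libraries. The part of these markers in the results was not tested. Without AngII replicate 1, AngII replicate 2 or CTRL replicate 1, 0 of the 9 genes passed, and without CTRL replicate 2 or either AngII+2W library 1 (Dstn) did. With DESeq2, 5 genes passed, Actn1 among them (FDR = 0.000566).

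**Figure D2:**
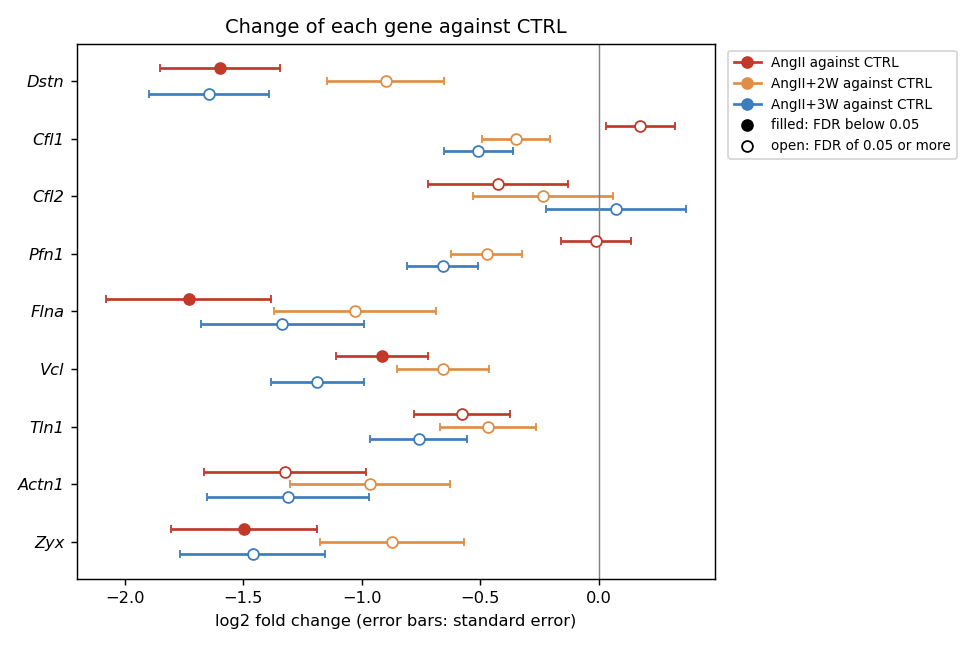
Log2 fold change (horizontal axis) of each gene in AngII, AngII+2W and AngII+3W against the same 2 CTRL libraries, with bars for the standard error and filled points for an FDR below 0.05. The only filled points are those of Dstn, Flna, Vcl and Zyx in AngII, at -1.60, -1.73, -0.91 and -1.50, and Cfl1 and Pfn1 lie near 0 in AngII and below 0 in both later groups.

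After the infusion had ended, none of the 9 genes passed an FDR of 0.05 against CTRL in edgeR's test, either at 2 weeks or at 3 weeks. At 2 weeks 0% of all genes passed, and at 3 weeks 0.285% did, so that the test left few calls for any gene. At an unadjusted p below 0.05, 7 of the 9 genes were lower in AngII+2W (6.18% of all genes were so) and 8 of 9 in AngII+3W (7.18% of all genes). Both libraries lay below both CTRL libraries in 8 of 9 genes in AngII+2W, as in 22.2% of all genes, and in 8 of 9 in AngII+3W, as in 18.3%. Cfl2 was the exception in each. The median log2 fold change of the 9 genes was -0.66 in AngII+2W and -1.19 in AngII+3W, against -0.0001 and 0.03 over all genes. All of these comparisons share the 2 CTRL libraries with that of AngII.

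In AngII+2W the fitted differences from CTRL were smaller than in AngII for all 5 linker genes. The log2 fold change was -1.03 for Flna (FDR = 0.349), -0.97 for Actn1 (FDR = 0.372), -0.87 for Zyx (FDR = 0.368), -0.66 for Vcl (FDR = 0.305) and -0.47 for Tln1 (FDR = 0.475), all from edgeR. Among the turnover genes it was -0.90 for Dstn (FDR = 0.301), -0.47 for Pfn1 (FDR = 0.315), -0.35 for Cfl1 (FDR = 0.448) and -0.24 for Cfl2 (FDR = 0.845). With DESeq2, Dstn (FDR = 0.0170) and Flna (FDR = 0.0259) passed.

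In AngII+3W, Dstn came nearest to the threshold (log2 fold change -1.64, SE 0.253, FDR = 0.0565, edgeR), at 32.0% of CTRL. Vcl followed with -1.19 (FDR = 0.0616), Zyx with -1.46 (FDR = 0.104) and Pfn1 with -0.66 (FDR = 0.121). Flna differed by -1.34 (FDR = 0.164), Actn1 by -1.31 (FDR = 0.169), Tln1 by -0.76 (FDR = 0.182) and Cfl1 by -0.51 (FDR = 0.206). Cfl2 stood at 0.07 (95% interval -0.61 to 0.76, FDR = 0.942). At 3 weeks, 8 of the 9 genes thus lay below CTRL without passing the adjusted threshold.

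The AngII+3W values depended on which of its libraries was used. Without AngII+3W replicate 1, which carried the skeletal muscle markers, the log2 fold change was -1.55 for Dstn (FDR = 0.138), -0.98 for Vcl (FDR = 0.137), -0.91 for Flna (FDR = 0.246) and -0.40 for Cfl2 (FDR = 0.671), so that Cfl2 changed sign. Without AngII+3W replicate 2, 6 genes passed in edgeR: Dstn, Vcl, Zyx, Flna, Actn1 and Tln1, with FDR from 0.00974 to 0.0391. Without CTRL replicate 2, 1 gene passed (Dstn, FDR = 0.0329). With DESeq2 on all libraries 7 passed, all but Cfl1 and Cfl2. The contractile markers, at 3383 to 4725 CPM in AngII+3W against 9942 to 12910 CPM in CTRL, were low in the same libraries, and their part was not tested.

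The 3 groups given AngII were also compared directly. In AngII+2W against AngII, 0 of the 9 genes passed an FDR of 0.05 in edgeR, against 0.163% of all genes. Dstn was higher in both AngII+2W libraries than in AngII (log2 fold change 0.70, 95% interval 0.12 to 1.27, FDR = 0.242), and Flna likewise (0.70, 95% interval -0.08 to 1.49, FDR = 0.389). Cfl1 was lower in both (-0.53, 95% interval -0.86 to -0.19, FDR = 0.153), as was Pfn1 (-0.46, 95% interval -0.81 to -0.12, FDR = 0.202). Both libraries lay above AngII in 5 genes (26.8% of all genes) and below in 2 (27.5%), and the 2 below were Cfl1 and Pfn1. The unadjusted p was below 0.05 in 3 of the 9, against 15.0% of all genes. With DESeq2 1 gene (Cfl1) passed, and with a fit to these 2 groups alone 2 did.

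In AngII+3W against AngII, again 0 of 9 passed (1.61% of all genes did), and both libraries lay below AngII in 3 of the 9 genes, Cfl1, Pfn1 and Vcl (24.2% of all genes). The differences of Cfl1 (log2 fold change -0.68, SE 0.145, FDR = 0.0667) and Pfn1 (-0.65, SE 0.149, FDR = 0.0813) were the nearest to the threshold and the only ones with an unadjusted p below 0.05 (10.4% of all genes in this direction), both genes having been at or above the CTRL level in AngII. They passed with DESeq2 and without AngII+3W replicate 2 (FDR = 0.0359 for Cfl1 and 0.0423 for Pfn1). Dstn differed by -0.05 (95% interval -0.62 to 0.53, FDR = 0.940), and Flna by 0.40 (95% interval -0.39 to 1.18, FDR = 0.578). The fall in AngII against CTRL had a 95% interval of -2.18 to -1.01 for Dstn and -2.54 to -0.92 for Flna. In size, the upper end of the later difference lies below that range for Dstn but within it for Flna. Both comparisons share the AngII libraries.

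Between AngII+3W and AngII+2W, 0 of 9 genes passed, with 0% of all genes passing. Dstn was lower in both AngII+3W libraries (log2 fold change -0.74, 95% interval -1.32 to -0.17, FDR = 0.442, edgeR), and so was Vcl (-0.53, 95% interval -0.98 to -0.08, FDR = 0.475). Both libraries lay below in 4 genes, Dstn, Vcl, Tln1 and Zyx, as in 19.7% of all genes, and the unadjusted p was below 0.05 in 2 (Dstn and Vcl) against 8.83% of all genes. Leaving out AngII+3W replicate 1 brought Tln1 to -0.06 and turned Flna to 0.12, and leaving out AngII+3W replicate 2 let Zyx pass (-1.20, FDR = 0.0485).

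To compare levels between genes, CPM was divided by the length of the principal transcript in kilobases (kb). In CTRL, Flna stood at 625 ± 95.2 CPM per kb, Dstn at 283 ± 103 and Actn1 at 165 ± 23.9 (SD, n = 2 each). Pfn1 was at 138 ± 5.73 CPM per kb, and Vcl (94.4 ± 12.5), Zyx (90.6 ± 10.2), Tln1 (76.2 ± 4.24) and Cfl1 (72.3 ± 6.17) followed. Vcl and Zyx lay within the spread of each other, and so did Tln1 and Cfl1. Cfl2 was lowest, at 31.7 ± 9.998 CPM per kb. In AngII, Flna remained first at 188 ± 35.6 CPM per kb, but Pfn1 came next at 137 ± 18.1, ahead of Dstn at 93.5 ± 3.41 and Cfl1 at 81.7 ± 4.24. The place of Cfl1 depends on the transcript, since its principal transcript in the annotation has 2354 bases and a shorter coding one 1148.

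Within the family of destrin and the cofilins, the share of Dstn in the summed CPM per kb was lower in every library given AngII than in CTRL. Dstn made up 76.9% and 67.5% of the family in the 2 CTRL libraries, 46.7% and 47.4% in AngII, then 65.5% and 63.2% in AngII+2W and, in AngII+3W, 48.6% and 55.0%. The share of Cfl1 was 14.7% and 24.6% in CTRL and 40.3% and 41.8% in AngII. The group order was thus CTRL, AngII+2W, AngII+3W and AngII. Counted with the shorter Cfl1 transcript, the share of Dstn was 66.7% and 53.6% in CTRL, 32.8% and 32.9% in AngII, then 52.6% and 50.1% in AngII+2W and, in AngII+3W, 37.9% and 41.4%, in the same order of groups. The summed level of the family was 463 and 312 CPM per kb in CTRL, 195 and 203 in AngII, then 257 and 214 in AngII+2W and, in AngII+3W, 174 and 176.

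**Figure D3:**
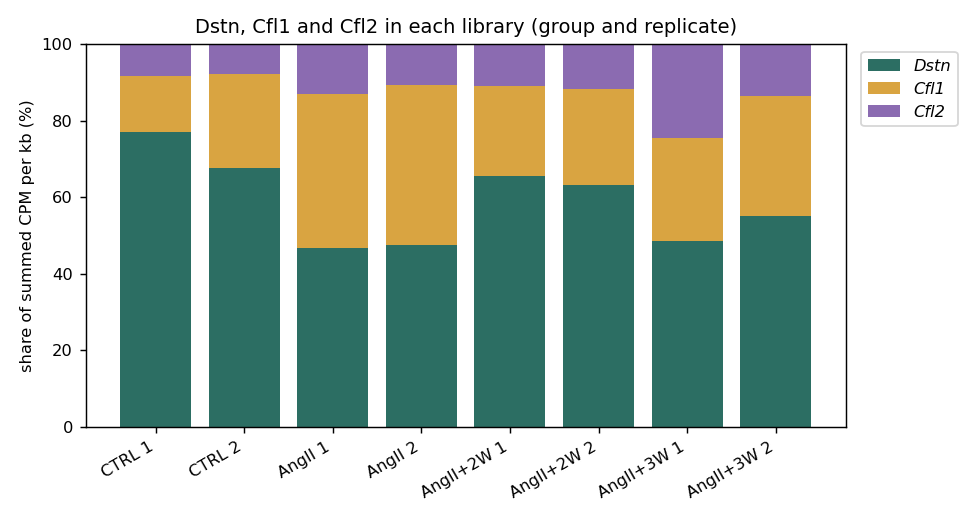
Share (vertical axis, percent) of Dstn, Cfl1 and Cfl2 in their summed CPM per kb in each of the 8 libraries, named by group and replicate. The Dstn part is 67.5% or more in CTRL, 47.4% or less in AngII and between these in AngII+2W and AngII+3W, and the Cfl2 part is largest, at 24.6%, in AngII+3W replicate 1.

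Ratios of counts within a library do not depend on scaling. Dstn had 4.26 and 2.23 counts for each count of Cfl1 in CTRL, 0.940 and 0.920 in AngII, then 2.27 and 2.06 in AngII+2W and, in AngII+3W, 1.47 and 1.43. For each count of Cfl2 it had 5.96 and 5.54 in CTRL, 2.33 and 2.85 in AngII, then 3.84 and 3.47 in AngII+2W and, in AngII+3W, 1.29 and 2.60. The lowest of these, 1.29, was that of AngII+3W replicate 1, the library with the skeletal muscle markers, whose part was not tested. The ratio of Dstn to Cfl2 was lower in all 6 libraries given AngII than in both CTRL libraries, and that to Cfl1 in 5 of 6. Chosen after the values were seen, 4 log2 ratios were compared between CTRL (n = 2) and the 6 libraries given AngII by an exact permutation test, two-sided, whose smallest possible p is 0.0357. Dstn over Cfl2 differed by -1.15 (exact p = 0.0357, lower in 6 of 6 libraries), Dstn over Cfl1 by -1.11 (exact p = 0.107), Flna over Cfl1 by -1.16 (exact p = 0.0714) and Flna over Pfn1 by -1.01 (exact p = 0.0714), the ratios of Flna also being lower in 6 of 6 libraries. After Benjamini-Hochberg adjustment over the 4 ratios the values were 0.0952 to 0.107. The ratios were picked from these same libraries, and the 6 libraries given AngII come from different times. The p values therefore describe a separation already seen and are no independent support.

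Over the 8 libraries the genes fell into patterns that share their libraries and depth, so that the following correlations of log2 CPM are descriptions. Among the 5 linker genes Pearson's r was 0.910 (Flna and Vcl) to 0.986 (Actn1 and Zyx). Dstn varied with the linkers, with r from 0.863 (Tln1) to 0.952 (Vcl), and far less with its family members Cfl1 (0.194) and Cfl2 (0.282). Cfl1 and Pfn1 varied together (0.959), and Cfl2 with none of the others, its r lying between -0.521 (Cfl1) and 0.282 (Dstn).

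Among 9901 other genes with a mean of at least 10 CPM, those most like Dstn were Bnip2 (r = 0.984), Xk (0.981), Mlxip (0.979), Cpe (0.978) and Rsu1 (0.978). Rsu1 encodes a partner of the PINCH proteins at integrin adhesions, and Xk a membrane protein of the Kell blood group complex. Xk and Cpe, which encodes carboxypeptidase E, changed about as much as Dstn (log2 fold change in AngII -1.92, FDR = 0.00778, and -1.77, FDR = 0.00970, edgeR), whereas Rsu1 (-0.38, FDR = 0.134), Mlxip (-0.39, FDR = 0.119) and Bnip2 (-0.32, FDR = 0.171) followed the pattern with small amplitude. In AngII+3W, Xk (-1.78, FDR = 0.0455) and Cpe (-1.63, FDR = 0.0455) passed in edgeR's test and the other 3 did not. Both of these calls were lost without AngII+3W replicate 1 (FDR = 0.0919 for Xk and 0.111 for Cpe), without CTRL replicate 1 (FDR = 0.208 and 0.241), without any AngII or AngII+2W library, with library totals alone, with the 2 groups alone and with the replicate block (FDR = 0.0525 and 0.0743). Most like Flna were Mylk (0.995), the kinase of the myosin light chain, Adcy5 (0.991), an adenylyl cyclase, Plekhg3 (0.990), Myh11 (0.990), the smooth muscle myosin heavy chain, and Pawr (0.990). Their log2 fold changes in AngII ran from -1.15 (Plekhg3, FDR = 0.0290) to -2.26 (Myh11, FDR = 0.0172). In edgeR's test all 5 passed in AngII, where 2.20% of all genes tested passed as lower. In AngII+3W none did, where 0.285% of all genes passed. The genes like Dstn and like Flna were chosen over the same libraries in which Dstn and Flna fell in AngII. Their calls follow in part from that choice. Mylk and Myh11 are also among the 12 contractile markers.

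Of 22 other genes of actin turnover, for capping, severing and monomer binding proteins, 2 rose and 1 fell in AngII, where 2.90% of all genes tested rose and 2.20% fell. Their median log2 fold change was 0.11. Twf1, a twinfilin that binds monomers, rose by 0.61 (FDR = 0.0357) and Coro1a, the coronin of leukocytes, by 0.95 (FDR = 0.0428). The leukocyte markers were highest in this group too, and their part was not tested. Cap2, the cyclase-associated protein of muscle, was at 59.4 and 37.0 CPM in CTRL and 14.8 and 11.2 CPM in AngII (-1.89, FDR = 0.0302, edgeR). It stood at 18.1 and 16.1 CPM in AngII+2W and, in AngII+3W, at 38.7 and 19.1 CPM. The cardiac muscle markers were likewise highest in both CTRL libraries and AngII+3W replicate 1, and their part was not tested. In AngII+3W none of the 22 passed in edgeR's test (median -0.05), while 1 was higher and 5 lower at an unadjusted p below 0.05 (5.34% and 7.18% of all genes) and 4 passed with DESeq2. The nearest were Wdr1, which helps cofilin to disassemble filaments (-0.71, FDR = 0.0777), Coro1c (-0.90, FDR = 0.0942) and Tmsb4x, the monomer-sequestering thymosin beta-4 (-0.82, FDR = 0.106).

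Of 21 genes of actin nucleation and elongation, 2 rose and 1 fell in AngII (median 0.08), against the same 2.90% and 2.20% of all genes. Enah, which encodes the elongation factor Mena, was at 593 and 329 CPM in CTRL, 134 and 144 CPM in AngII and 151 and 170 CPM in AngII+3W. It fell by 1.73 on the log2 scale in AngII (FDR = 0.0165) and differed by -1.52 in AngII+3W (FDR = 0.0657, edgeR). Its relative Evl rose by 0.78 (FDR = 0.0409), and the formin Diaph3 rose by 1.36 (FDR = 0.0183) at a level of at most 7.88 CPM. None of the 21 passed in AngII+3W in edgeR's test (median -0.12), 3 were lower at an unadjusted p below 0.05 (7.18% of all genes) and 1 passed with DESeq2, with Arpc2, a subunit of the Arp2/3 complex, standing at -0.39 (FDR = 0.296) and Vasp at -0.67 (FDR = 0.343).

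The kinases and phosphatases that switch cofilin off and on, with the small GTPases and kinases above them, gave no call in edgeR's test: 0 of 16 genes passed in AngII (median 0.02) or in AngII+3W (median -0.02). At an unadjusted p below 0.05, AngII had 1 higher and 2 lower genes (10.9% and 9.29% of all genes) and AngII+3W had 2 lower ones (7.18% of all genes), and DESeq2 called 1 in AngII and 0 in AngII+3W. Those with the smallest p were Pak1 (0.96, FDR = 0.0671), Rock1 (-0.97, FDR = 0.115) and Rock2 (-0.61, FDR = 0.152) in AngII. In AngII+3W they were Tesk1 (-0.45, FDR = 0.195), Rock2 (-0.51, FDR = 0.375) and Rock1 (-0.69, FDR = 0.404). Phosphorylation of cofilin was not measured here. In AngII+2W no gene of these 3 lists passed in edgeR's test (DESeq2 called 1, 1 and 0 of them, and 5, 2 and 1 had an unadjusted p below 0.05, as 10.7% of all genes had), and the median was -0.03 for turnover, 0.02 for nucleation and -0.04 for the cofilin switch.

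Of 38 other linker genes of adhesions and dense bodies, 11 fell in AngII, where 2.20% of all genes tested fell, none rose and 27 did not pass. Fold changes were below 0 in 32 of the 38, against 51.0% of all genes, with a median log2 fold change of -0.70 against -0.0085 for all genes. In AngII+2W none passed in edgeR's test and 8 did with DESeq2 (median -0.54). Synpo2, a dense body protein that binds filamin and alpha-actinin, was at 846 and 656 CPM in CTRL, 166 and 171 CPM in AngII, then 396 and 402 CPM in AngII+2W and 213 and 295 CPM in AngII+3W. It fell by 2.16 in AngII (log2, FDR = 0.00530) and by 1.56 in AngII+3W (FDR = 0.0455, edgeR), where it was the only gene of the list to pass. Pdlim3, an alpha-actinin binding LIM protein (-2.01, FDR = 0.0120), and Lims2, a PINCH protein (-0.94, FDR = 0.0165), also fell in AngII. Further genes of the list that fell in AngII were Flnc, Fermt2, Tgfb1i1, Tns1, Tns2, Csrp1, Csrp2 and Pdlim4. In AngII+3W the median was -0.54 and 35 of the 38 fold changes were below 0, against 46.4% of all genes, with Pdlim1 (-1.31, FDR = 0.0676) and Fermt2, which encodes kindlin-2 (-0.77, FDR = 0.0684), next after Synpo2. The count in AngII was 0 to 21 when 1 library was left out, lowest without AngII replicate 2 and highest without AngII+3W replicate 1. The call of Synpo2 in AngII+3W was lost without AngII+3W replicate 1 (FDR = 0.1001), without CTRL replicate 1 (FDR = 0.244), without any of the AngII or AngII+2W libraries (FDR = 0.108 to 0.115) and with the replicate block (FDR = 0.0743).

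**Figure D4:**
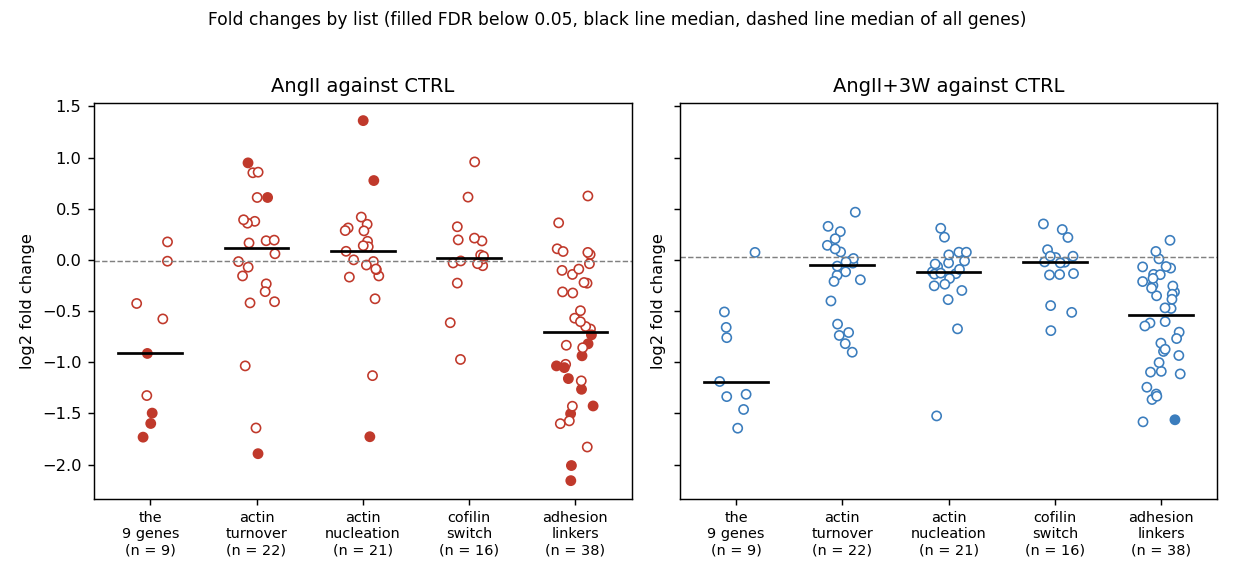
Log2 fold change (vertical axis) in AngII (left) and AngII+3W (right) against CTRL for the 9 genes and for lists of other genes. The lists hold other actin turnover, actin nucleation, cofilin switch and adhesion linker genes, and were chosen with earlier results of these data known. Each gene is 1 point, filled for an FDR below 0.05, with a line at each median and a dashed line at the median of all genes. The medians of the 9 genes (-0.91 and -1.19) and of the other linkers (-0.70 and -0.54) lie below 0, and those of the other 3 lists between -0.12 and 0.11.

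Of the 6 actin genes, the 2 smooth muscle actins fell in both groups and the cytoplasmic actins did not pass. Acta2 was at 3057 and 2246 CPM in CTRL, 506 and 664 CPM in AngII, then 1184 and 895 CPM in AngII+2W and 350 and 550 CPM in AngII+3W (FDR = 0.0133 in AngII and 0.0455 in AngII+3W, edgeR). Actg2, the enteric smooth muscle actin, fell by 2.30 in AngII (FDR = 0.0116) and by 2.21 in AngII+3W (FDR = 0.0455). Like that of Synpo2, both calls in AngII+3W were lost without AngII+3W replicate 1 (FDR = 0.0907 for Acta2 and 0.111 for Actg2), without CTRL replicate 1 (FDR = 0.237 and 0.244), without any AngII or AngII+2W library and with the replicate block (FDR = 0.0743 for both). Actb, the cytoplasmic beta-actin, differed by -0.35 in AngII (FDR = 0.330) and, in AngII+3W, by -1.01 (FDR = 0.0700), and Actg1 by -0.15 (FDR = 0.712) and -0.71 (FDR = 0.166). Acta1 and Actc1, the sarcomeric actins, followed the libraries with striated muscle markers: Acta1 had 380 CPM in AngII+3W replicate 1 and at most 2.05 CPM elsewhere, and Actc1 ran from 1.99 to 617 CPM.

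SRF and its coactivators control many genes of the contractile cytoskeleton, Vcl and Flna among those known. Srf was at 50.7 and 48.4 CPM in CTRL, 25.5 and 27.3 CPM in AngII, then 33.7 and 25.2 CPM in AngII+2W and 24.3 and 24.3 CPM in AngII+3W. It fell by 0.91 in AngII (log2, FDR = 0.0209) and differed by -1.03 in AngII+3W (FDR = 0.0547, edgeR). Myocd, which encodes myocardin, the smooth and cardiac muscle coactivator, fell by 2.27 in AngII (FDR = 0.0174) and differed by -1.56 in AngII+3W (FDR = 0.115). The broadly expressed coactivator Mrtfa differed by -0.05 in AngII (FDR = 0.916) and, in AngII+3W, by -0.35 (FDR = 0.497), and Mrtfb by 0.21 (FDR = 0.415) and 0.41 (FDR = 0.237).

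Near-identical gene copies had few counts of their own. A search of the annotated transcripts (at least 90% identity over at least 200 bases) found 1 pseudogene like Dstn, at 0 counts in every library. It found 4 like Cfl1, which together had at most 2 counts in a library (0.09% of the count of Cfl1), and none for the other 7 genes. Reads of a copy that were assigned to the gene would also leave the copy with few counts, so these counts cannot exclude such reads. Cfl1, Cfl2, Vcl, Tln1, Actn1 and Zyx overlap genes on the other strand, and Actn1 also overlaps Gm47765 on its own. Whether the counting used the strand is not given in the sources used here, so that reads of these overlapping genes may not be told apart.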

How the data were processed

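The 8 aortic libraries took their group and replicate number from the labels. The authors quantified paired-end reads of ribosomal RNA-depleted RNA with Salmon (its version is not given in the sources used here) in the ARMOR workflow against mouse cDNA (GRCm38.p6). The deposited table holds the resulting expected counts per gene, as whole numbers without normalization. A change of isoform can move such counts.

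After filterByExpr had dropped genes of low count and TMM had scaled the libraries, all 8 were fitted together (1 coefficient per group, 4 residual degrees of freedom) by edgeR 4.0.16 in R 4.3.3 (quasi-likelihood test, Benjamini-Hochberg over 17182 genes, FDR below 0.05). Standard errors are the log2 fold change divided by the root of its F value, and intervals use the test's degrees of freedom. The paper states no model. DESeq2 1.42.0, limma 3.58.1 (voom), other scalings and filters, a replicate block and leaving out each library were the alternatives.

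The 9 genes and all lists were chosen with earlier results of these data known. Named besides the 9 genes are all actin and SRF regulator genes, the 3 genes of each other list with the smallest p in AngII and in AngII+3W, and the 5 genes most correlated with Dstn and with Flna. The 8 other adhesion linkers listed by name in AngII were chosen after their values were seen.

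Gene positions and transcript lengths came from GENCODE M21 (98.7% of identifiers matched) and copies were searched with BLAST 2.17.0. The 2 libraries of a group come from different pools of 2 mice, and they differed beyond sampling noise (chi-square per degree of freedom 12.6 to 87.6). Libraries of the same replicate number come from different mice. Per the methods of the study, all libraries were pooled and sequenced on the same lane. Neither the labels nor the paper say whether those of the same number shared a batch or day before sequencing. With 2 libraries against 2, permutation of a single value has 0.33 as its smallest p.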

Additional observations from a re-analysis of the deposited data

Results flagged for a closer look

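Of the genes described, 1 was singled out because its effect differed between time points by a direct test. Diaph3, a formin that nucleates actin filaments, was at 3.17 and 2.92 CPM in CTRL, 7.88 and 7.77 CPM in AngII, then 3.55 and 2.74 CPM in AngII+2W and 2.42 and 2.74 CPM in AngII+3W. It was higher in AngII than in CTRL, with both AngII libraries above the 6 others. Its log2 fold change in AngII+3W relative to AngII was -1.60 (FDR = 0.0253, edgeR), where 1.61% of all genes tested passed. Diaph3 had been named for its small p in AngII against CTRL, which uses the same AngII libraries. A fall from them was favoured by that choice, so its call is a description. Over the alternatives the FDR ran from 0.000279 to 0.176, and the call was lost without AngII replicate 1 (FDR = 0.0703), AngII replicate 2 (FDR = 0.176), AngII+2W replicate 1 (FDR = 0.0619), AngII+2W replicate 2 (FDR = 0.0604) or AngII+3W replicate 1 (FDR = 0.0911) and in a fit to the 2 groups alone (FDR = 0.121).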

How the results depend on the processing

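Having 2 libraries a group limits what these tests can call. The direction of the fold changes of Dstn, Flna, Vcl, Tln1, Actn1 and Zyx against CTRL was the same under every alternative run, and the counts of calls were not. Of the 9 genes, 4 were called in AngII against CTRL, whereas 1 (Dstn) passed with library totals alone, 5 (those 4 and Actn1) with the 2 groups alone, with DESeq2 or when every gene of at least 1 count was kept, and 0 to 5 when 1 library was left out. Where a group keeps 1 library, that library is assumed to vary like the other groups. With the replicate block 3 passed (Vcl, FDR = 0.0574, did not), and in each of the other comparisons 0 did. The correlation of same-numbered deviations was -0.045 to 0.248 over the 6 pairs of groups. This leaves unsettled whether a number marks a shared batch or day before sequencing.

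With DESeq2, 2 of the 9 passed in AngII+2W against CTRL. At 3 weeks against CTRL 3 passed with every gene of at least 1 count, 2 with at least 10 counts in every library, 7 with DESeq2, and 0 to 6 when 1 library was left out. In AngII+2W against AngII 1 passed with DESeq2 and 2 with the 2 groups alone. The 3-week group against AngII had 2 calls with DESeq2 and 0 to 2 when 1 library was left out, and in AngII+3W against AngII+2W 0 to 1. The cause was not tested.

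Among all genes, 877 were called in AngII against CTRL and 0 to 1504 when 1 library was left out, with 1588 by DESeq2. For AngII+3W against CTRL 49 were called, 585 by DESeq2, 200 with at least 1 count, 119 with at least 10, 4 with the replicate block, 1 with library totals, 0 with the 2 groups alone and 0 to 463 when 1 library was left out. In AngII+2W against CTRL 0 were called, 373 by DESeq2, 5 with at least 1 count and 0 to 275 when 1 library was left out. In AngII+2W against AngII 28 were called, 685 by DESeq2, 242 with at least 1 count, 18 with library totals, 15 by limma-voom, 884 with the 2 groups alone and 0 to 262 when 1 library was left out. For AngII+3W against AngII 276 were called, 968 by DESeq2, 522 with at least 1 count, 179 with library totals, 0 with the 2 groups alone and 3 to 1005 when 1 library was left out. Between the later groups 0 were called, 221 by DESeq2, 11 with at least 1 count, 2 with the replicate block and 0 to 432 when 1 library was left out. Of the 38 adhesion linkers, 11 were called in AngII, against 7 with DESeq2 size factors, 6 with library totals, 17 with at least 1 count, 19 with DESeq2, 17 with the 2 groups alone and 0 to 21 when 1 library was left out. In AngII+3W 1 was called, against 6 with at least 1 count, 3 with at least 10, 16 with DESeq2, 0 with library totals, the replicate block or the 2 groups alone and 0 to 13 when 1 library was left out. The 3 calls of actin turnover in AngII became 5 with DESeq2, and they, the 3 of nucleation, the 2 actins and the 2 SRF regulators came to as few as 0 when 1 library was left out. The 2 actins of AngII+3W became 5 with DESeq2, 0 with library totals, the replicate block or the 2 groups alone and 0 to 4 when 1 library was left out.

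Values near 0 changed sign. In AngII against CTRL, Pfn1 reached 0.0230 with library totals and 0.0020 with the 2 groups alone, and lay between -0.15 and 0.12 when 1 library was left out. In AngII+3W against AngII, Actn1 was -0.0254 with library totals, -0.0825 with limma-voom and -0.0187 with the replicate block, and Zyx -0.0072 with library totals and -0.0228 with limma-voom. Leaving out 1 library there gave ranges of -0.71 to 0.48 for Actn1, -0.58 to 0.45 for Zyx, -0.20 to 0.0559 for Dstn, -0.26 to 0.83 for Flna and -0.51 to 0.0601 for Tln1. In the same way, AngII+3W against AngII+2W gave -1.07 to 0.11 for Actn1, -0.96 to 0.12 for Flna and -0.16 to 0.62 for Cfl2, and AngII+2W against AngII -0.0551 to 0.29 for Tln1. Against CTRL, Cfl2 ranged from -0.53 to 0.14 in AngII+2W and from -0.40 to 0.43 in AngII+3W, Acta1 from -2.15 to 0.63 in AngII and, in AngII+3W, from -0.31 to 9.28, Actc1 from -3.53 to 0.42, Coro1a from -0.18 to 0.12 and Twf1 from -0.0026 to 0.14 in AngII+3W, and Mrtfa from -0.24 to 0.12 in AngII.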
